A study of Homo sapiens with 4 samples.

Results

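HEK293 cells, a long-established line from human embryonic kidney, carried a mutated RPL4, and their ribosome footprints were sequenced with and without erythromycin. The comparison rested on 2 of the 4 libraries, 1 for RPL4 mutant cells with erythromycin and 1 for RPL4 mutant cells without it, so no difference below has a replicate check and no p is given. The other 2 libraries, 1 for wild type cells with erythromycin and 1 for wild type cells without it, are given beside them as values. All transcripts listed for either mutant library were members, 15058 of the 16292 listed in at least 1 of the 4 libraries, and a transcript absent from a library was read as 0. Of these, 12690 were listed in both mutant libraries, 1704 in the treated library alone and 664 in the untreated library alone.

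The 4 groups shared the cell line, its culture medium and the preparation of polysomes on sucrose gradients. The protocol describes stable lines carrying GFP, intact L4 or L4 without a loop (Δloop), infected with lentivirus for a hairpin against RPL4 or a scrambled one, and cells arrested with cycloheximide or lactimidomycin. Which line, hairpin and arresting drug each library had, whether a line was 1 clone, and the dose and duration of erythromycin are not given in the labels. The files hold footprints only, so mRNA level and translation were not separated, and fewer cells with a transcript cannot be told apart from less of it per cell.

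Erythromycin is a macrolide antibiotic that binds in the peptide exit tunnel of the bacterial ribosome and stops or slows particular nascent chains. In the cytosolic ribosome of eukaryotes a loop of the RPL4 protein reaches into the tunnel and, with RPL17, forms its constriction. Mitochondria hold a second set of ribosomes, of bacterial descent, which translate only the mRNAs made from mitochondrial DNA.

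The treated mutant library held 993461 reads and the untreated one 604506, against 2555613 in wild type with erythromycin and 2965243 without it. A gene kept for analysis had a median of 40 reads in the treated mutant library and 23 in the untreated one, against 91 and 108 in the wild type libraries with and without the drug. On a coding sequence of 1 kb, 1 read was worth 1.01 RPKM (reads per kilobase of coding sequence, scaled to library size) in the treated mutant library and 1.65 RPKM in the untreated one. The 10 most-read transcripts took 5.73% of reads in the treated mutant library and 8.07% in the untreated one, against 5.76% and 5.75% in wild type with and without the drug. Of 13 markers of HEK293 cells, 8 passed the filter on low values, and VIM, the mesenchymal filament vimentin, stood at 637 RPKM in treated and 744 RPKM in untreated mutant cells. White blood cell, muscle, hepatocyte and red cell marker lists had 2, 1, 0 and 0 members past that filter. The white blood cell list held 331 reads in treated and 169 reads in untreated mutant cells, of which ITGB2, an integrin chain, had 313 and 159.

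RPL4 itself (chromosome 15, 66498015 to 66504883, minus strand, GRCh38) stood at 1439 RPKM in mutant cells with erythromycin and 1707 RPKM in mutant cells without it, against 2586 and 2515 RPKM in wild type with and without the drug. Both mutant libraries were below both wild type libraries, and the treated one was the lowest of the 4. The log2 ratio of treated over untreated mutant cells was −0.30 [−0.40, −0.20]. Here and below a log2 ratio is that of RPKM plus 1, centred on the median of the genes tested, and brackets give the exact 95% counting interval of the ratio of reads, which covers counting error only. A transgene copy of RPL4 would be counted as RPL4, and a hairpin would lower it, so these values are only a partial check of the labelled genotypes.

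Over the 9612 genes averaging 5 RPKM or more in the 4 libraries, the mutant response to erythromycin leaned to the higher side among large differences. With the drug 598 genes (6.22%) lay 2-fold or more above the untreated library and 326 (3.39%) lay 2-fold or more below it. In wild type, at several times the depth, 166 (1.73%) were higher and 148 (1.54%) lower. Since shallow counts widen ratios, the 3179 genes with at least 100 reads over both mutant libraries describe the response more firmly. Among them 94 (2.96%) were higher and 25 (0.786%) lower by 2-fold or more, while the counting interval lay above 0 for 326 (10.3%) and below 0 for 465 (14.6%). Relative to all genes tested, the typical well-read gene was thus slightly lower, with a median of −0.05, and 1798 of 3179 (56.6%) lay below 0.

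**Figure D1:**
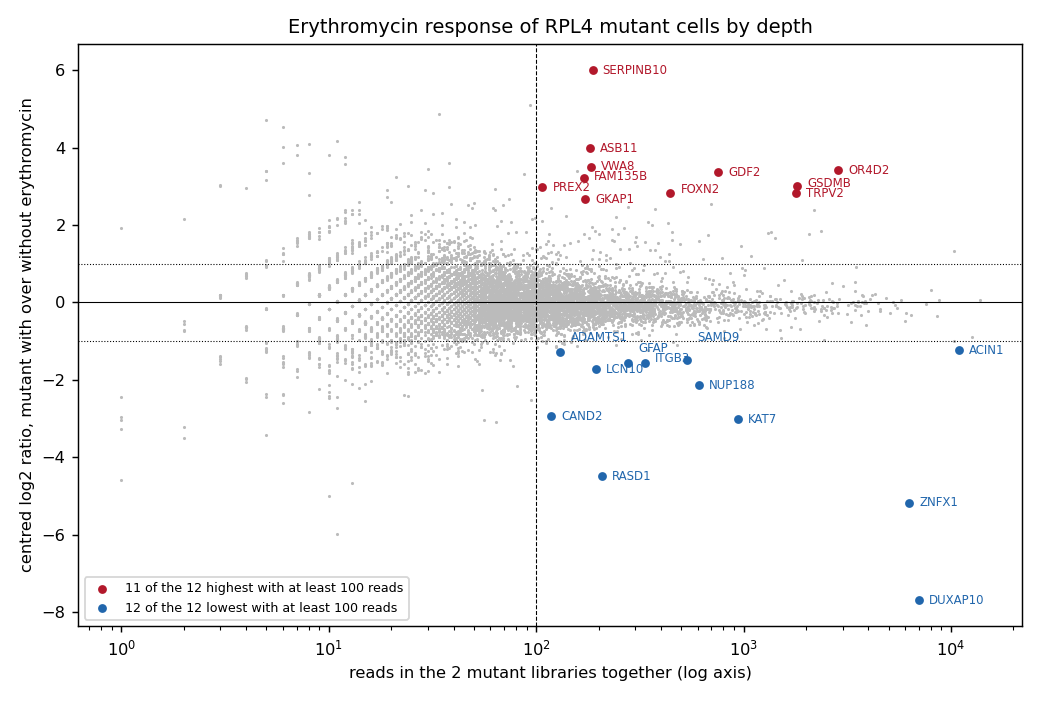
Centred log2 ratio of RPL4 mutant cells with over without erythromycin (vertical) against the reads of both mutant libraries together (horizontal, log axis), 1 point for each of the 9612 genes tested; dotted lines mark 2-fold and the dashed line 100 reads. Among genes right of the dashed line, 94 lie at or above the upper dotted line and 25 at or below the lower one, and 11 of the 12 highest and the 12 lowest are named.

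The shift followed how strongly a gene is expressed. Genes averaging 5 RPKM or more in the wild type libraries alone, which the mutant ratio does not use, were split by that mean into 5 classes of equal size. The median mutant log2 ratio was 0.14, 0.07, 0.01, −0.06 and −0.05 from the lowest to the highest class. The share at least 2-fold higher ran 12.7%, 8.61%, 4.98%, 2.33% and 1.08%, and the share at least 2-fold lower ran 6.17%, 4.66%, 2.87%, 1.19% and 0.488%. Depth ran with this order, from a median of 26 reads per gene over both mutant libraries in the lowest class to 264.5 in the highest, and its part in the shares was not tested.

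The distribution of reads differed in the same direction. Transcripts at 100 RPKM or more in untreated wild type cells took 58.9% of reads (exact binomial interval 58.8% to 59.0%) in the treated mutant library and 62.6% (62.4% to 62.7%) in the untreated one, against 66.2% and 66.7% in wild type with and without the drug. A few transcripts of this class, described below, held much of that mutant difference. DUXAP10 took 0.00574% of reads in the treated and 1.15% in the untreated mutant library, and ZNFX1 0.0281% and 0.994%. ACIN1 took 0.459% and 1.05%, MROH9 0.614% and 1.09%, and ZNF107 0.482% and 0.923%. The share of the class without them was not computed. Transcripts between 5 and 20 RPKM took 11.7% with erythromycin and 10.1% without it in mutant cells, against 8.52% and 8.59% in wild type cells. Those under 2 RPKM took 1.64% and 1.32% in mutant cells, against 0.729% and 0.614% in wild type cells. The 2 mutant libraries thus differed from each other in the direction in which both differed from wild type. Coding length and GC content went with smaller shifts: from the shortest to the longest of 5 classes of coding sequences the median ran between 0.03 and −0.03. The class richest in G and C had a median of 0.08 in the mutant and −0.08 in wild type.

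**Figure D2:**
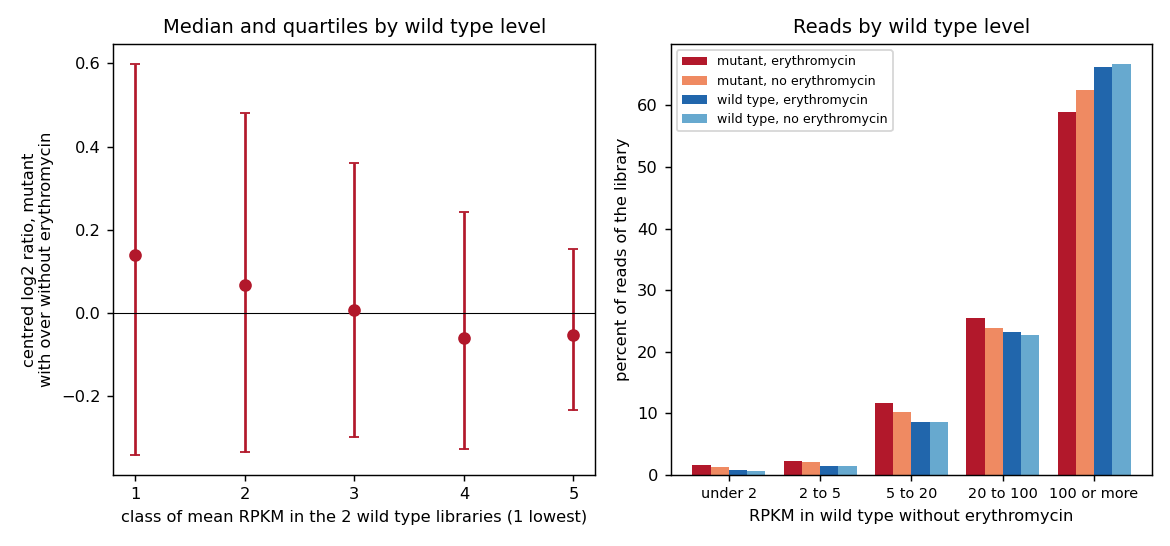
Left, median (points) and quartiles (bars) of the centred log2 ratio of mutant cells with over without erythromycin in 5 classes of wild type RPKM, lowest first. Right, percent of each library's reads on transcripts grouped by their RPKM in untreated wild type cells: the class at 100 or more holds 58.9% in the treated mutant library and 62.6% in the untreated one.

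Genes encoded in mitochondrial DNA did not move as a block in mutant cells. The 7 measured genes, of 13, together held 2222 reads or 0.224% (0.214% to 0.233%) of the treated mutant library and 1387 reads or 0.229% (0.218% to 0.242%) of the untreated one. In wild type they held 0.0816% with erythromycin and 0.144% without it. Within the mutant pair the genes ran from −0.67 to 1.11 around a median log2 ratio of 0.11, with counting intervals above 0 for 3 and below 0 for 2, where 7.23% and 7.71% of all genes tested lay. In the wild type pair 7 of 7 were below 0. The 6 others of the 13 had no matched entry in any library, so the shares cover the 7 alone.

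MT-CO1, the catalytic subunit of cytochrome c oxidase, stood at 454 RPKM in treated and 588 RPKM in untreated mutant cells, against 166 and 331 RPKM in wild type with and without the drug. It was lower with erythromycin in both genotypes, by a log2 ratio of −0.42 [−0.59, −0.26] in the mutant and −0.97 [−1.11, −0.84] in wild type. MT-CO2, which receives electrons from cytochrome c in the same enzyme, stood at 477 RPKM in treated and 426 RPKM in untreated mutant cells, against 128 and 314 RPKM in wild type. Its mutant ratio of 0.11 [−0.16, 0.38] was within counting error, while that of wild type was −1.27 [−1.50, −1.05].

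MT-ATP8 and MT-ATP6, 2 subunits of the membrane part of ATP synthase, are read from 1 mRNA on which their coding sequences overlap. MT-ATP8 occupies chrM:8366-8572 on the plus strand of GRCh38 and MT-ATP6 follows at chrM:8527-9207, so that 46 of the 207 bases of MT-ATP8 belong to both. The coding sequence of MT-ATP8 is printed because a footprint on those 46 bases, in capitals, could be counted for either gene; it was taken from the GENCODE 29 transcripts.
MT-ATP8: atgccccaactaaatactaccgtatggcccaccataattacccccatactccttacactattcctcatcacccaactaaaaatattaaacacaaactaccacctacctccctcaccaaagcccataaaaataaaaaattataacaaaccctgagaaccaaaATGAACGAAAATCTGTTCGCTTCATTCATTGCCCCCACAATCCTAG

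MT-ATP8 stood at 666 RPKM in treated and 368 RPKM in untreated mutant cells, against 200.4 and 327.5 RPKM in wild type with and without the drug. MT-ATP6 stood at 217 RPKM in treated and 219 RPKM in untreated mutant cells, against 98.8 and 196 RPKM in wild type. In the mutant pair MT-ATP8 was therefore higher with the drug at 0.80 [0.31, 1.32], and MT-ATP6 was within counting error at −0.06 [−0.45, 0.33]. How reads on the shared bases were assigned is not given in the sources used here.

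The complex I genes went both ways in the mutant pair. MT-ND4L, a small membrane subunit, stood at 339 RPKM in treated and 150.4 RPKM in untreated mutant cells (1.11 [0.49, 1.79], from 100 and 27 reads), against 149 and 316 RPKM in wild type with and without the drug (−1.06 [−1.40, −0.75]). It was the only one of the 7 past 2-fold in the mutant, and it was past 2-fold in the other direction in wild type, a difference that was not tested. In reads thinned to equal depth its mutant ratio was 0.98, short of 2-fold. MT-ND5 stood at 190.5 RPKM in treated and 293 RPKM in untreated mutant cells, a ratio of −0.67 [−0.90, −0.45]. MT-ND6 stood at 911 RPKM in treated and 564 RPKM in untreated mutant cells, a ratio of 0.64 [0.39, 0.89]. MT-ND5 ends at base 14148 on the plus strand and MT-ND6 at base 14149 on the minus strand, and the files do not state whether reads were counted by strand.

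**Figure D3:**
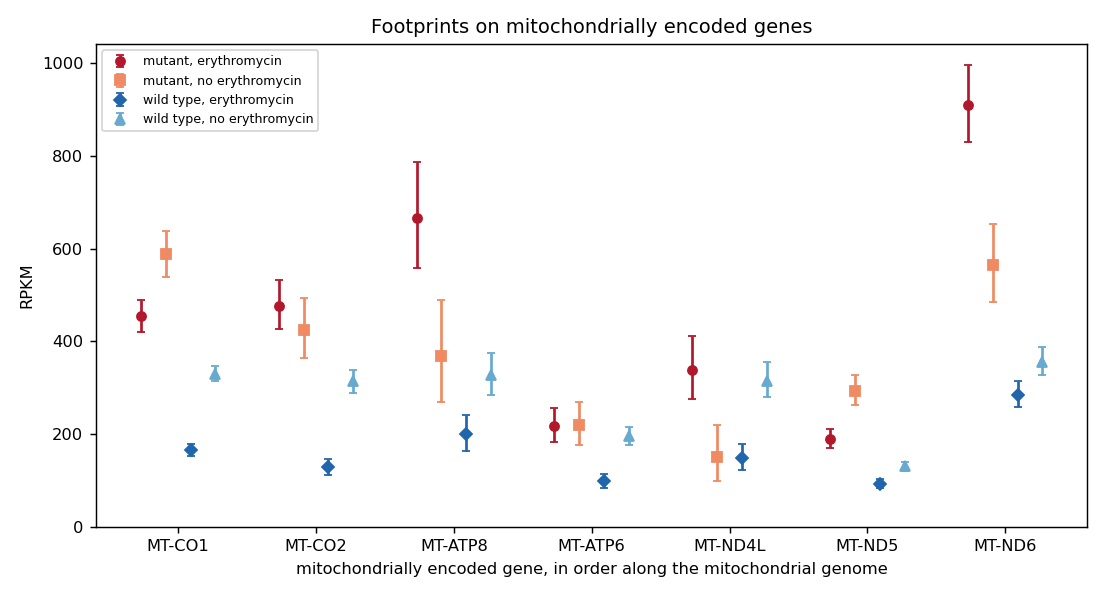
RPKM of the 7 measured mitochondrially encoded genes in each of the 4 libraries, with exact 95% Poisson intervals of the read counts as bars, which cover counting error only. MT-ATP8, MT-ND4L and MT-ND6 are higher in the treated than in the untreated mutant library, MT-CO1 and MT-ND5 are lower, and all 7 are lower in the treated than in the untreated wild type library.

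Humanin-like open reading frames, nuclear copies of a stretch of the mitochondrial 16S ribosomal RNA gene, were read from few footprints. A total of 6 were listed in a mutant library, with 48 reads in treated and 25 reads in untreated mutant cells, a log2 ratio of 0.17 [−0.55, 0.93], against 19 and 3 reads in wild type with and without the drug. MTRNR2L13 had 22 reads in treated and 3 reads in untreated mutant cells, MTRNR2L8 had 15 in each, and MTRNR2L12 had 9 and 5. MTRNR2L1, MTRNR2L5 and MTRNR2L10 had at most 1 read in either mutant library. The coding sequences of the 3 frames with more reads are printed to show how much of them a footprint could share, from the GENCODE 29 transcripts on GRCh38, with capitals at the bases of MTRNR2L8 and MTRNR2L13 that differ from MTRNR2L12. They lie at chr3:96617199-96617273 on the minus strand (MTRNR2L12), chr11:10508152-10508226 on the minus strand (MTRNR2L8) and chr4:116299801-116299875 on the plus strand (MTRNR2L13).
MTRNR2L12: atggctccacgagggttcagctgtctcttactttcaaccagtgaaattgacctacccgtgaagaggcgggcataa
MTRNR2L8: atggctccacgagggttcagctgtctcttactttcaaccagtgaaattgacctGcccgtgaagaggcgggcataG
MTRNR2L13: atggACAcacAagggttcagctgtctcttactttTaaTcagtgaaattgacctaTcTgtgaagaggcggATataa

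MTRNR2L8 differed from MTRNR2L12 at 2 of 75 bases and shared an unbroken run of 53 bases with it, longer than a footprint, so reads of these 2 frames cannot be assigned to 1 of them with certainty. MTRNR2L13, which had the largest ratio of the printed frames, differed at 10 bases, and its longest shared run was 23 bases, shorter than a usual footprint. Against the mitochondrial 16S gene MTRNR2L12 and MTRNR2L8 differed at 2 bases each, with unbroken runs of 34 and 39 bases, so reads of that RNA could be counted for them. MTRNR2L13 differed from it at 10 bases, with a longest run of 26. How many mismatches the alignment allowed is not stated in the labels.

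Nuclear genes that build the respiratory chain and the mitochondrial ribosome stayed close to the median gene in the mutant. The 36 measured complex I subunits had a median of 0.02, and the 38 subunits of complexes II to V one of −0.01. The 77 mitochondrial ribosomal proteins had a median of −0.03. None of these medians kept its sign under every scaling or filter tried. ATP5ME, a small subunit of ATP synthase, stood at 2368 RPKM in treated and 1497 RPKM in untreated mutant cells (0.61), and NDUFA1, needed for complex I assembly, at 2689 and 2159 RPKM (0.26). COX7C of cytochrome c oxidase was level at 2689 RPKM in treated and 2714 RPKM in untreated mutant cells.

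Among 77 mitochondrial ribosomal proteins and 25 mitochondrial translation and RNA factors, 2 genes passed 2-fold with at least 50 reads, 1 in each list and both upwards. They made 1.30% and 4% of their lists, where 6.22% of all genes tested lay 2-fold higher. Among the translation and RNA factors 1 other gene, with fewer than 50 reads, lay past 2-fold downwards at −1.31, where 3.39% of all genes tested lay. TFB2M, which opens mitochondrial promoters for transcription, stood at 139 RPKM in treated and 54.2 RPKM in untreated mutant cells (1.30 [0.80, 1.85]), against 52.2 and 38.8 RPKM in wild type with and without the drug. The treated mutant library was more than 2-fold above each of the other 3. MRPS24, of the small mitochondrial subunit, stood at 152 RPKM in treated and 72.2 RPKM in untreated mutant cells (1.01 [0.32, 1.77]), against 89.3 and 62.2 RPKM in wild type. It was past 2-fold under 8 of 11 alternatives, with a lowest ratio of 0.85. Among the chaperones of the mitochondrial matrix HSPA9, the matrix HSP70, was at −0.51 [−0.75, −0.28] and HSPD1, its chaperonin, at −0.30 [−0.47, −0.12], while the co-chaperonin HSPE1, at −0.26 [−0.67, 0.16], was within counting error. As a list, the 16 mitochondrial chaperones and proteases had a median of −0.12, with 4 intervals below 0 and 2 above, where 7.71% and 7.23% of all genes tested lay, or 14.6% and 10.3% of those with at least 100 reads.

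Proteins of the cytosolic ribosome moved little, with more counting intervals below 0 than above. The 47 large-subunit proteins other than RPL4 had a median log2 ratio of −0.08 and the 34 small-subunit proteins one of −0.07, and 0 of these 81 genes passed 2-fold. Few strongly expressed genes did: in the highest class of wild type level 1.08% were 2-fold higher and 0.488% lower. Of the 45 large-subunit genes with at least 100 reads, 13 intervals lay below 0 and 8 above. Of the 34 small-subunit genes, all at that depth, 9 lay below and 2 above. Of all genes with at least 100 reads, 14.6% had an interval below 0 and 10.3% above. RPL37A stood at 8421 RPKM in treated and 6564 RPKM in untreated mutant cells (0.31), RPL36 at 7758 and 7527 RPKM (−0.01, above 0 under 6 of 11 alternatives) and RPS4X at 4695 and 5706 RPKM (−0.33). The large-subunit genes took 6.62% of reads in treated and 6.56% in untreated mutant cells, against 8.05% and 7.74% in wild type with and without the drug. The small-subunit genes took 4.73% and 4.83% in mutant cells, against 6.26% and 6.02% in wild type.

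The list made for neighbours of RPL4 in the tunnel and at its port spread to both sides. Of the 8 measured, counting intervals lay above 0 for 4 and below 0 for 3, where 10.3% and 14.6% of genes with at least 100 reads lay. RPL39, which lines the lower tunnel, stood at 3194 RPKM in treated and 4973 RPKM in untreated mutant cells (−0.69 [−0.88, −0.51]), against 4608 and 5428 RPKM in wild type with and without the drug. RPL26, at the rim of the port, stood at 694 RPKM in treated and 899 RPKM in untreated mutant cells (−0.43 [−0.68, −0.17]), and RPL19 was at −0.22 [−0.31, −0.12]. On the other side RPL23A, a docking site for chaperones and the signal recognition particle, stood at 4758 RPKM in treated and 3990 RPKM in untreated mutant cells (0.20 [0.11, 0.29]), followed by RPL22 (0.18), RPL24 (0.15) and RPL35 (0.09). RPL24 lies at the subunit interface, not in the tunnel or at its port, but is included in the 8 and in the 4. The choice of RPL39, RPL26, RPL22 and RPL24 was made after their values were seen. Many ribosomal protein genes have processed pseudogenes, and how reads shared with these were counted is not given in the sources used here.

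The 12 genes with the largest ratios among those with at least 100 reads included a receptor, an ion channel and a secreted ligand. In 12 of 12 the treated mutant library was the highest of the 4, as it was in 26.1% of the 3179. This rank is a description, since the genes were chosen for their mutant ratio and the limit of 100 reads counts the mutant libraries alone, both of which favour a high treated mutant value. They took 0.834% of reads in the treated mutant library, against 0.087% in the untreated one. In 4 of them, OR4D2, GDF2, TRPV2 and FOXN2, the ratio was also above 2-fold in wild type, as it was in 1.07% of the 3179.

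OR4D2, an olfactory receptor, had the most reads of the 12, at 2940 RPKM in treated and 263 RPKM in untreated mutant cells, against 493 and 131 RPKM in wild type with and without the drug. Its log2 ratio was 3.42 [3.19, 3.68] in the mutant and 1.91 in wild type. GDF2, a circulating ligand of the BMP family, stood at 559 RPKM in treated and 51.3 RPKM in untreated mutant cells, against 33.4 and 7.06 RPKM in wild type. TRPV2, a cation channel, stood at 723 RPKM in treated and 98.0 RPKM in untreated mutant cells, against 287 and 69.1 RPKM in wild type. FOXN2, a forkhead transcription factor, stood at 318 RPKM in treated and 42.1 RPKM in untreated mutant cells, against 131 and 44.5 RPKM in wild type. For OR4D2, TRPV2 and FOXN2 both treated libraries stood above both untreated ones, while for GDF2 the untreated mutant library was above the treated wild type one.

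GSDMB, a gasdermin that forms membrane pores when cleaved, behaved otherwise. It stood at 1365 RPKM in treated and 163 RPKM in untreated mutant cells (3.01 [2.75, 3.29]), against 113 and 140.4 RPKM in wild type with and without the drug (−0.29 [−0.49, −0.10]). The 1 library that differed was thus the treated mutant one. GKAP1, which anchors the cGMP-dependent kinase, stood at 144 RPKM in treated and 21.0 RPKM in untreated mutant cells (2.67), against 11.4 and 16.2 RPKM in wild type. PREX2, an activator of the GTPase Rac, stood at 21.3 RPKM in treated and 1.72 RPKM in untreated mutant cells, against 1.14 and 1.89 RPKM in wild type. Its mutant ratio was 2.98 [2.31, 5.23], from 102 and 5 reads. PREX2, like SERPINB10 and TCHHL1 below, passed the filter on low values only through its treated mutant value.

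For SERPINB10, ASB11, VWA8 and FAM135B, as for PREX2, the untreated mutant library had 8 reads or fewer. SERPINB10, a serine protease inhibitor of blood-forming cells, had 186 reads in treated and 1 read in untreated mutant cells (5.99 [4.27, 12.08]), and in wild type 0 and 2 reads with and without the drug. ASB11, a substrate adaptor of a ubiquitin ligase, had 176 and 6 reads (3.98 [2.95, 5.57]), and VWA8, a mitochondrial ATPase, had 177 and 6 reads (3.50 [2.96, 5.58]). FAM135B had 162 and 8 reads (3.21 [2.56, 4.81]). VWA8 was lower in the untreated mutant library, at 1.74 RPKM, than in wild type with and without the drug, at 12.7 and 7.25 RPKM. TCHHL1, a skin protein of the trichohyalin family, was the only gene with at least 50 reads that was listed for 1 mutant library alone, with 93 reads in treated and 0 in untreated mutant cells. Set against a floor of 3 reads it was at least 18.2-fold higher with the drug, and the counting interval of its log2 ratio, which also covers the error of the 93 reads, began at 3.86.

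On the lower side, the untreated mutant library was the highest of the 4 for 12 of the 12 genes with the lowest ratios, and the treated mutant library was the lowest of the 4 for 3. The untreated mutant library was the highest in 18.3% of the 3179, and the choice by mutant ratio and mutant reads favours it in the same way. These genes took 0.584% of reads in the treated library and 3.59% in the untreated one. In 6 of the 12 both mutant libraries stood above both wild type libraries. None was at least 2-fold lower in wild type, where 0.44% of the 3179 genes were.

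DUXAP10, a transcribed processed pseudogene (chromosome 14, 19298697 to 19337669, minus strand, GRCh38), was the most-read transcript of untreated mutant cells, at 18121 RPKM from 6934 reads. In treated mutant cells it stood at 90.6 RPKM from 57 reads, and in wild type at 2836 RPKM with the drug and 1448 RPKM without it. The mutant log2 ratio was −7.68 [−8.10, −7.32] and that of wild type 0.98 [0.92, 1.05]. Being a copy of other sequence, it can share reads with its relatives. ZNFX1, a helicase of antiviral defence, stood at 48.8 RPKM in treated and 1727 RPKM in untreated mutant cells (−5.17 [−5.38, −5.03]), against 404 and 459 RPKM in wild type. Both transcripts were thus low in the treated mutant library and high in the untreated one relative to either wild type library.

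RASD1, a small GTPase induced by glucocorticoids, stood at 16.7 RPKM in treated and 379 RPKM in untreated mutant cells (−4.48 [−5.46, −3.78]), against 8.33 and 3.99 RPKM in wild type with and without the drug. KAT7, a histone acetyltransferase, stood at 89.4 RPKM in treated and 697 RPKM in untreated mutant cells (−3.00 [−3.27, −2.77]), against 68.6 and 50.9 RPKM in wild type. NUP188, a nuclear pore scaffold protein, stood at 32.0 RPKM in treated and 139 RPKM in untreated mutant cells (−2.14 [−2.44, −1.91]), against 28.1 and 32.0 RPKM in wild type. In these, and in CAND2, a regulator of cullin ligases (5.15 RPKM in treated and 44.1 RPKM in untreated mutant cells, against 2.74 and 2.91 RPKM in wild type), the untreated mutant library alone stood far above the others.

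GFAP, the filament protein of astrocytes, stood at 77.2 RPKM in treated and 222 RPKM in untreated mutant cells (−1.57 [−1.95, −1.22]), against 8.02 and 6.15 RPKM in wild type. SAMD9, an antiviral factor, stood at 42.0 RPKM in treated and 116 RPKM in untreated mutant cells (−1.50 [−1.78, −1.26]), against 7.71 and 14.4 RPKM in wild type. Both were lower with the drug but stayed above wild type. The lipocalin LCN10 was at 110.2 RPKM in treated and 351 RPKM in untreated mutant cells (−1.72 [−2.18, −1.29]), against 149 and 51.5 RPKM in wild type with and without the drug (1.53 [1.20, 1.92]). The integrin chain ITGB3 was at 51.5 RPKM in treated and 149 RPKM in untreated mutant cells (−1.57 [−1.92, −1.26]), against 75.05 and 24.9 RPKM in wild type (1.57 [1.35, 1.86]). For these last 2 genes the drug pair ran in opposite directions in the 2 genotypes, a difference that was not tested. ADAMTS1, a metalloprotease, completed the 12 with ACIN1, at 18.4 RPKM in treated and 44.4 RPKM in untreated mutant cells (−1.28).

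**Figure D4:**
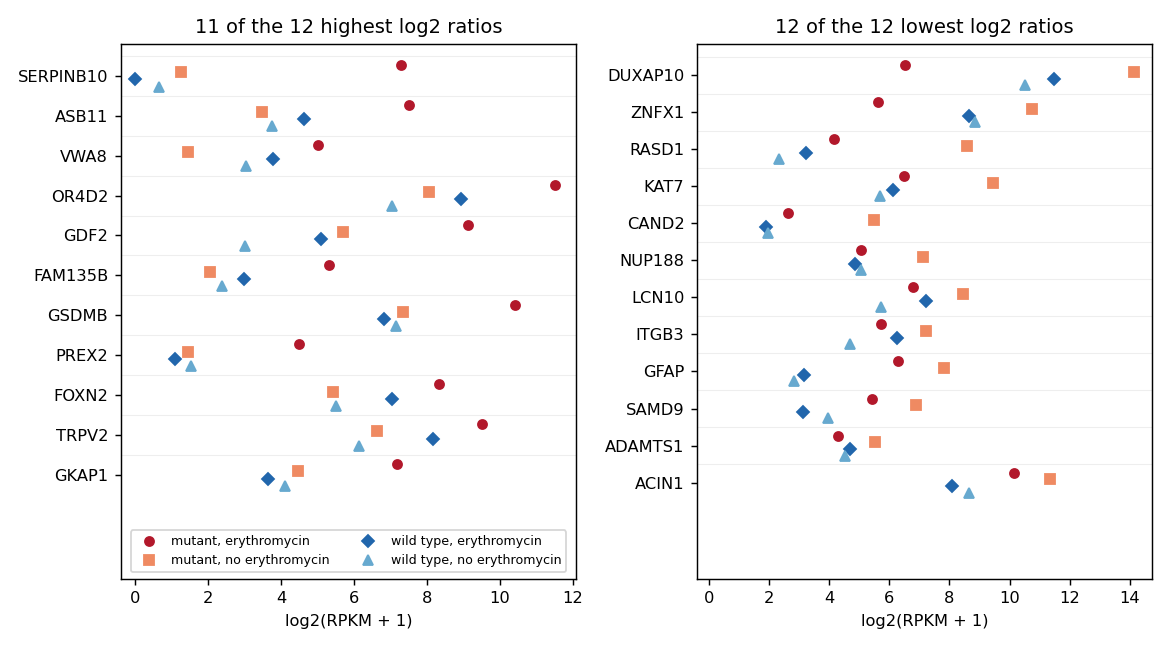
log2(RPKM + 1) in each of the 4 libraries for 11 of the 12 genes with the highest (left) and the 12 with the lowest (right) centred log2 ratio of mutant cells with over without erythromycin, among genes with at least 100 reads. On the left the treated mutant library is the highest of the 4 for each gene drawn, and on the right the untreated mutant library is the highest for 12 of 12.

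The most-read transcripts of the 2 mutant libraries overlapped but were ordered differently. EEF1A1, the factor that brings aminoacyl-tRNA to the ribosome, led the treated library with 8769 reads and had 4962 reads in the untreated one (0.05). USP7, a deubiquitinase that acts on MDM2 and p53, followed with 8379 reads in treated and 1947 reads in untreated mutant cells. It stood at 2549 RPKM in treated and 973 RPKM in untreated mutant cells (1.34 [1.26, 1.41]), against 131 and 97.5 RPKM in wild type with and without the drug.

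A set of 3 transcripts stood far above wild type in both mutant libraries and lower in the treated than in the untreated one. MROH9 stood at 2372 RPKM in treated and 4216 RPKM in untreated mutant cells (−0.88 [−0.93, −0.83]), against 360 and 334 RPKM in wild type. ZNF107, a zinc-finger protein, stood at 1884 RPKM in treated and 3608 RPKM in untreated mutant cells (−0.99 [−1.05, −0.93]), against 471 and 616 RPKM in wild type. ACIN1, a nuclear protein of splicing complexes, stood at 1141 RPKM in treated and 2601 RPKM in untreated mutant cells (−1.24 [−1.30, −1.19]), against 268 and 400.5 RPKM in wild type. DBP, an output transcription factor of the circadian clock, stood at 5624 RPKM in treated and 4359 RPKM in untreated mutant cells (0.31 [0.25, 0.38]). In wild type it stood at 1894.5 RPKM with the drug and 25.5 RPKM without it, so the untreated mutant library was already above both. Whether the reads of these transcripts lie at single positions was not analysed.

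Over the whole group with at least 100 reads, the 94 genes at least 2-fold higher took 4.49% of reads in treated and 1.29% in untreated mutant cells. The 25 genes at least 2-fold lower took 0.703% in treated and 3.84% in untreated mutant cells. Both groups held genes read little in wild type, with median levels of 22.9 RPKM and 33.1 RPKM in untreated wild type cells, against 99.7 RPKM for all 3179. Both mutant libraries stood above both wild type libraries in 55 of the 94 and in 12 of the 25, against 20.9% of the 3179. Since the limit of 100 reads counts the mutant libraries alone, it admits genes low in wild type that are high in the mutant, which bears on these medians and counts.

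Cholesterol synthesis genes leaned to the higher side in treated mutant cells. Of 25 genes 24 were measured, with a median log2 ratio of 0.17. A difference of 1.5-fold or more was seen upwards in 6 and downwards in 0, where 15.4% and 10.7% of all genes tested lay. INSIG1, which holds the sterol sensor SCAP in the endoplasmic reticulum and is itself a target of SREBP, stood at 413 RPKM in treated and 190.4 RPKM in untreated mutant cells (1.06 [0.73, 1.41]), against 281 and 198 RPKM in wild type with and without the drug. The treated libraries were the higher ones in both genotypes.

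HMGCS1, which makes HMG-CoA, stood at 159 RPKM in treated and 84.7 RPKM in untreated mutant cells (0.85 [0.49, 1.24]). IDI1, an isomerase of the isoprenoid steps, stood at 258 RPKM in treated and 137 RPKM in untreated mutant cells (0.85 [0.46, 1.26]). TM7SF2, a sterol reductase, was at 1.80 from 21 and 3 reads, and HSD17B7 at 0.72 from 26 and 9 reads. The choice of these 4 was made after their values were seen. The sterol enzymes EBP (−0.23 [−0.62, 0.17]) and FDFT1 (0.03 [−0.26, 0.32]) were within counting error. The 25 genes together took 0.288% (0.278% to 0.299%) of reads in treated and 0.230% (0.219% to 0.243%) in untreated mutant cells, against 0.273% and 0.263% in wild type. The untreated mutant library was thus the lowest of the 4.

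Most glycolysis enzymes lay slightly lower in treated mutant cells. The 17 measured had a median of −0.24, and counting intervals lay below 0 for 9 and above 0 for 0, where 7.71% and 7.23% of all genes tested lay. Of the 17, 15 had at least 100 reads, a depth at which 14.6% of genes had an interval below 0. GAPDH stood at 4916 RPKM in treated and 5995 RPKM in untreated mutant cells (−0.34 [−0.40, −0.28]), ENO1, the enolase, at 2302 and 2694 RPKM (−0.28 [−0.36, −0.20]) and TPI1, the triose isomerase, at 2054 and 2017 RPKM (−0.03 [−0.14, 0.08]). The list took 1.45% of reads in treated and 1.66% in untreated mutant cells, against 2.09% and 2.12% in wild type.

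Of the 12 measured tubulins, 10 lay below 0. Their median was −0.27, with 5 intervals below 0 and 0 above, against 7.71% and 7.23% of all genes tested, and 14.6% and 10.3% at 100 reads or more. The abundant beta chains TUBB (1358 RPKM in treated and 1846 RPKM in untreated mutant cells, −0.50 [−0.60, −0.40]) and TUBB4B (666 and 996 RPKM, −0.63 [−0.77, −0.49]) led, and the alpha chain TUBA1B was at −0.27 [−0.47, −0.07]. Together tubulins took 0.388% of reads in treated and 0.513% in untreated mutant cells, against 0.591% and 0.676% in wild type with and without the drug. Tubulin genes are close copies, and reads can be shared among them. In the actin list of 31 the median was −0.02, which turned positive without centring, although ACTB stood at 2941 RPKM in treated and 3987 RPKM in untreated mutant cells (−0.49). Even so, 11 intervals of the actin list (35.5%) lay below 0 and 2 (6.45%) above. The list took 1.52% of reads in treated and 1.71% in untreated mutant cells, against 1.74% and 2.01% in wild type. TMSB4X, which binds actin monomers, was at −0.21, and PFN1, profilin, was at 0.02.

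Cytosolic aminoacyl-tRNA synthetases, which charge tRNAs with their amino acids, had a median of −0.26 over 22 measured. Of these, 17 lay below 0, 5 intervals (22.7%) were below 0 and 0 above, and 0 passed 2-fold. Of genes with at least 100 reads, as 20 of the 22 had, 56.6% lay below 0 and 14.6% had an interval below 0. Only 2.96% of them were 2-fold higher and 0.786% lower. FARSA was at 142 RPKM in treated and 162 RPKM in untreated mutant cells (−0.24), NARS at 127 and 139 RPKM (−0.18) and YARS at 143 and 119 RPKM (0.21). The 5 with an interval below 0, chosen after their values were seen, were WARS (−0.93 [−1.43, −0.46]), KARS (−0.82 [−1.29, −0.38]), LARS (−0.55 [−0.97, −0.15]), AARS (−0.51 [−0.94, −0.10]) and TARS (−0.51 [−0.80, −0.23]).

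Several other lists had medians below 0. Proteasome subunits (33 measured) had a median of −0.20 with 12 intervals below 0 and 1 above, with PSMB1 at −0.30, PSMB2 at −0.14 and PSMB3 at −0.10. Spliceosome and mRNA-binding proteins (41) had a median of −0.17 with 15 intervals below 0 and 1 above, among them SRSF3 at −0.26 and HNRNPA2B1 at −0.18 but SNRPD2 at 0.17. Genes of DNA replication (40) had a median of −0.14 with 11 intervals below 0 and 1 above, with PCNA, the polymerase clamp, at −0.27. Genes of G2 and mitosis (37) had a median of −0.16 with 8 below and 2 above, and initiation factors (35) one of −0.14 with 8 below and 1 above. Ribosome biogenesis factors (60) had a median of −0.10 with 4 below (6.67%) and 2 above, and lysosome and autophagy genes (31) one of −0.06 with 3 below (9.68%) and 1 above. Of all genes with at least 100 reads, 14.6% had an interval below 0 and 10.3% above, and genes in the highest class of wild type level had a median of −0.05. HEK293 markers (8) had a median of −0.26, with the pluripotency factor SOX2, chosen after its values were seen, at −1.06 from 11 and 14 reads.

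Interferon-stimulated genes had the lowest median of the lists other than the humanin-like frames, −0.62 over 16 measured. Of these 9 lay 1.5-fold or more below and 4 lay 1.5-fold or more above the untreated library, where 10.7% and 15.4% of all genes tested lay. Counting intervals lay below 0 for 4 and above 0 for 1, and most members had few reads. ZNFX1 and SAMD9, given above, had 6010 and 335 reads in untreated mutant cells, and no other measured member reached 50 reads in either mutant library. Leaving out ZNFX1, an alternative chosen after seeing the data, the median was −0.60, and the list held 437 reads in treated and 506 reads in untreated mutant cells. IFITM2, a membrane protein that blocks virus entry, had 20 and 21 reads (−0.83 [−1.80, 0.12]), and the IFITM genes are close copies that can share reads.

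**Figure D5:**
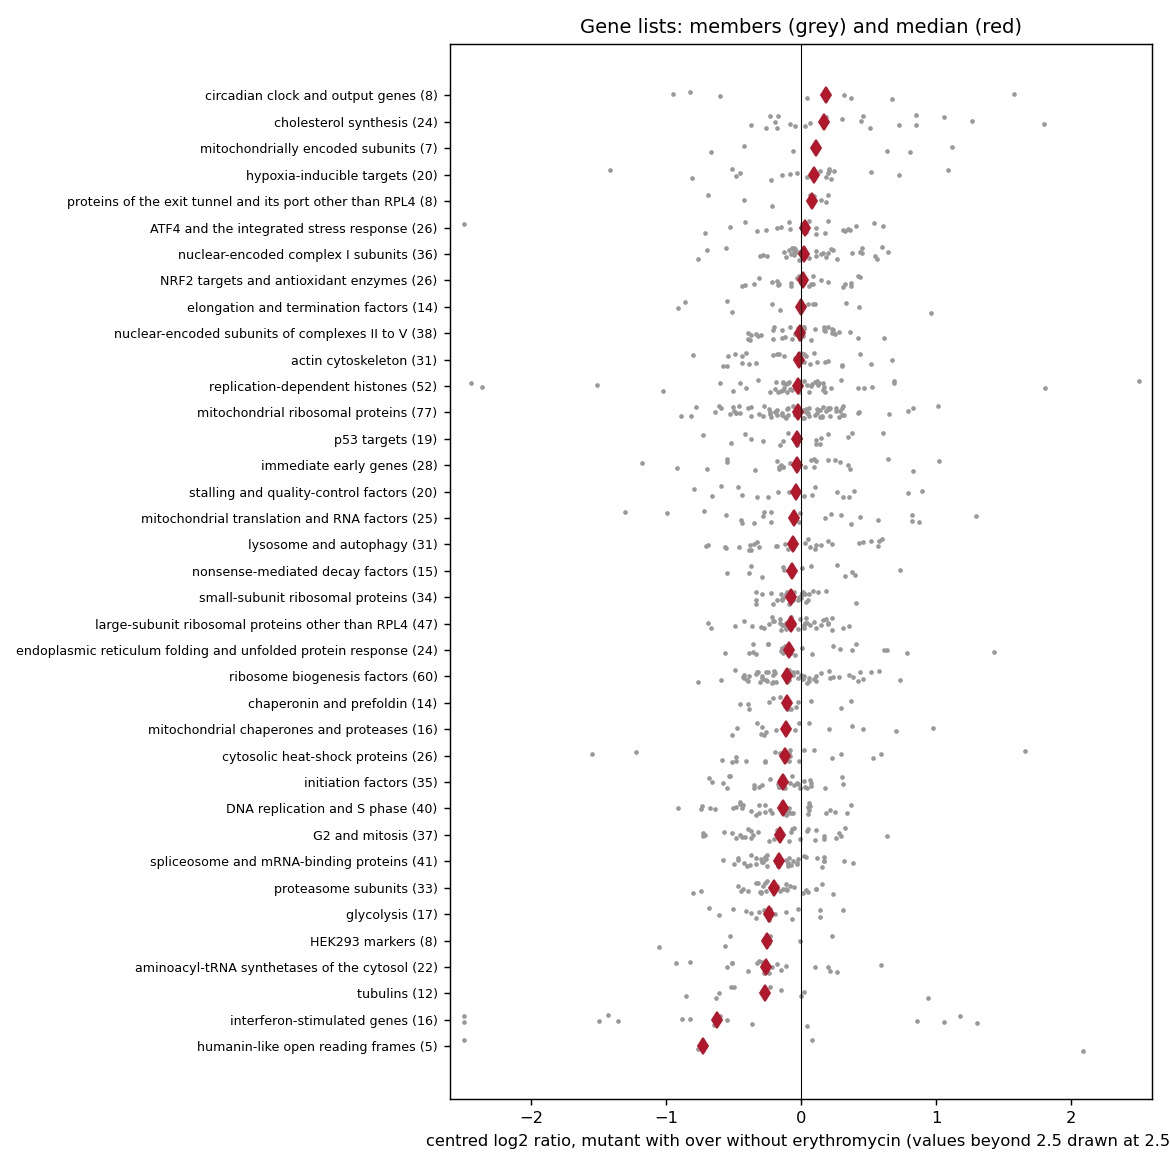
Centred log2 ratio of mutant cells with over without erythromycin for the measured members (grey points, values beyond 2.5 drawn at 2.5) and the median (red diamonds) of each list with at least 5 members, the number measured in parentheses, ordered by median. Interferon-stimulated genes lie at −0.62 and cholesterol synthesis at 0.17; the humanin-like frames at the bottom rest on 48 and 25 reads in all.

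Of the ATF4, endoplasmic reticulum and heat-shock lists, only the last kept the sign of its median, below 0, under all 11 alternatives. The 26 genes of ATF4 and the integrated stress response had a median of 0.03, which fell below 0 in reads thinned to equal depth, with PSAT1 and PHGDH, enzymes of serine synthesis, at −0.42 and −0.33 and MTHFD2 at −0.09. Only 1 gene of the ATF4 list lay past 2-fold, downwards at −5.98, where 3.39% of all genes tested lay. Genes of folding in the endoplasmic reticulum (24) had a median of −0.09, which turned positive in thinned reads, with the lectin chaperones CALR at −0.36 and CANX at 0.08. For cytosolic heat-shock genes (26) the median was −0.12, against 0.30 in wild type, with HSPA8 at 510.3 RPKM in treated and 536 RPKM in untreated mutant cells (−0.12) and HSP90AB1 at 484 and 509 RPKM (−0.12). PTGES3 of the same list stood at 697 RPKM in treated and 1013 RPKM in untreated mutant cells (−0.59 [−0.82, −0.36]). Of the 26, 19 lay below 0, with 7 intervals (26.9%) below 0 and 2 (7.69%) above. Of all genes tested, 7.71% and 7.23% lay so. Among the 18 with at least 100 reads 5 intervals lay below 0 and 2 above, against 14.6% and 10.3% of all genes at that depth. Heat-shock genes took 0.653% of reads in treated and 0.721% in untreated mutant cells, against 1.14% and 0.917% in wild type with and without the drug. Whether this list differed between the genotypes was not tested.

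Factors that detect or clear stalled ribosomes, the machinery that a blocked tunnel would engage, had a median of −0.04 over 20 measured, which changed sign under 3 of 11 alternatives. EDF1, which binds collided ribosomes, stood at 1216 RPKM in treated and 1388 RPKM in untreated mutant cells (−0.24 [−0.44, −0.05]), and ASCC2, of the complex that splits them, at 161 and 125 RPKM (0.31 [0.05, 0.58]). Intervals lay above 0 for 3 (15.0%) and below 0 for 3 (15.0%), where 7.23% and 7.71% of all genes tested lay. Of the 20, 14 had at least 100 reads, among them these 3 and 3. At that depth 10.3% of all genes had an interval above 0 and 14.6% below. Nonsense-mediated decay factors (15) had a median of −0.07 with 1 interval on each side. Targets of p53 (19) had a median of −0.03, which turned positive without centring, and CDKN1A stood at 277 RPKM in both treated and untreated mutant cells, against 387 and 226 RPKM in wild type with and without the drug.

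In each of the clock, hypoxia and immediate early lists 1 gene was past 2-fold with at least 50 reads, upwards in each. That made 12.5% of 8, 5% of 20 and 3.57% of 28 measured genes, where 6.22% of all genes tested lay 2-fold higher. BHLHE41, a repressor in the circadian clock, stood at 356 RPKM in treated and 114 RPKM in untreated mutant cells (1.58 [1.27, 1.91]), against 72.4 and 37.5 RPKM in wild type. The clock list as a whole had a median of 0.18 over 8 measured and split to both sides. In it 2 genes (25%) lay 1.5-fold or more higher and 3 (37.5%) lower, where 15.4% and 10.7% of all genes tested lay. VEGFA, the angiogenic factor induced by hypoxia, stood at 36.6 RPKM in treated and 16.02 RPKM in untreated mutant cells (1.09 [0.19, 2.19], from 45 and 12 reads; 0.94 with a pseudocount of 5 RPKM), while the 20 hypoxia targets had a median of 0.09. EGR2, an immediate early transcription factor, had 43 reads in treated and 12 reads in untreated mutant cells (1.02, past 2-fold under 8 of 10 alternatives), and the 28 immediate early genes had a median of −0.03, which changed sign under 4 of 11 alternatives. With fewer than 50 reads, 1 member of the hypoxia list, HILPDA (−1.41 from 5 and 8 reads), and 1 of the immediate early list, JUNB (−1.18 from 13 and 18 reads), lay past 2-fold downwards; both were named after their values were seen. Replication-dependent histones (52) had a median of −0.03, which also changed sign, with HIST1H4C at 0.12, HIST1H1E at 0.05 and HIST1H3B at −0.07. Histone genes are near-identical copies, so their separate values are uncertain.

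Gene by gene, the erythromycin ratios of the mutant and wild type pairs were nearly uncorrelated, while their genes past 2-fold overlapped in part. Across the 9612 genes tested, the log2 ratios of the 2 pairs had a Spearman correlation of 0.03 and a Pearson correlation of 0.04. Across the 3179 genes with at least 100 mutant reads these were 0.02 and 0.08. The 2 pairs share no library, genes are not independent replicates, and counting noise in the mutant libraries lowers such a correlation. Of the genes at least 2-fold higher in the mutant pair, 43 were so in the wild type pair too, 7.19% of the 598 of the mutant and 25.9% of the 166 of wild type. Of all genes tested, 1.73% were so in wild type and 6.22% in the mutant. For genes at least 2-fold lower the overlap was 18, or 5.52% of 326 and 12.2% of 148, where 1.54% of all genes were so in wild type and 3.39% in the mutant. Among genes with at least 100 mutant reads 15 were higher in both pairs, 16.0% of the 94 of the mutant and 44.1% of the 34 of wild type, where 1.07% of the 3179 were higher in wild type and 2.96% in the mutant. Only 1 was lower in both, of 25 in the mutant and 14 in wild type, where 0.44% were lower in wild type and 0.786% in the mutant. Calls in opposite directions occurred too. Of all genes tested, 27 were higher in the mutant and lower in wild type, and 16 were the reverse. Among genes with at least 100 mutant reads these were 1 and 3. Whether the overlap in the same direction exceeds that in opposite directions was not tested.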

How the data were processed

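Ribosome footprints were sequenced from 4 libraries, 1 per group. The authors deposited 1 RPKM value per transcript, listing only values above 0, per the files themselves; cutadapt, STAR and GRCh38 appear, without roles or versions, in the submitters' processing notes. For the read counter and annotation release, the name is not given in the sources used here. Of 16292 transcripts, 16172 were matched to GENCODE 29 for symbols and coding lengths, and the 120 others are not named. RPKM times coding length (stop codon included) gave whole reads within 1e-06 of a read for 98.1% of transcripts, which yielded the library totals; for 315 the smallest length that gave whole reads was taken. The recovered reads summed to between 99.95% and 99.97% of each total.

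Values were analysed as log2(RPKM + 1), a scale that understates changes of low genes. The 9612 genes averaging 5 RPKM or more over the 4 libraries were kept, and ratios were centred on their median, which removed 0.05 in the mutant and −0.02 in wild type. With 1 library a side no test was run. Intervals are exact (conditional binomial for a ratio, Poisson for a count, binomial for a share) at 95% and cover counting error only; the scripts were tested on simulated data. A gene with 0 reads was set against a floor of 3 reads. Python 3.11.15, NumPy 2.4.6, pandas 2.3.3, SciPy 1.17.1 and matplotlib 3.10.9 were used.

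The members and the 41 gene lists were chosen with earlier results of these data known. Genes were named by rule: RPL4; the 12 highest and 12 lowest ratios at 100 reads or more; the 10 most-read transcripts of each mutant library; the measured mitochondrially encoded genes and humanin-like frames; in each list with at least 5 measured members, the 3 with the highest mean RPKM and those past 2-fold with at least 50 reads; and genes with at least 50 reads in 1 mutant library alone. The rule took 149 genes, not all of which are named. Some results are not reported here. Other pseudocounts, filters, scalings and thinning to equal depth were tried as alternatives.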

Additional observations from a re-analysis of the deposited data

Results flagged for a closer look

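The drug pair ran in opposite directions in the 2 genotypes for 3 of the named genes that were past 2-fold in both. ITGB3 had a log2 ratio of −1.57 in RPL4 mutant cells and 1.57 in wild type cells. LCN10 had −1.72 in mutant cells and 1.53 in wild type cells. MT-ND4L had 1.11 in mutant cells and −1.06 in wild type cells, and in reads thinned to equal depth its mutant ratio of 0.98 was short of 2-fold. With 1 library in each group, none of these differences was tested. Among all genes tested, 27 were at least 2-fold higher in the mutant and 2-fold lower in wild type, and 16 were the reverse. They were 27 of 598 and 16 of 326, where 1.54% of all genes tested were lower and 1.73% higher in wild type. Among the 3179 genes with at least 100 mutant reads there were 1 and 3 such genes.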

How the results depend on the processing

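No paired analysis was possible because each group has 1 library and nothing in the labels links libraries further. The counts of genes at least 2-fold higher and lower in mutant cells with erythromycin, 598 and 326, were 315 and 162 with a pseudocount of 5 RPKM, 1198 and 783 for genes averaging 1 RPKM or more, and 184 and 82 for genes averaging 20 RPKM or more. They were 1801 and 1121 with no filter on low values, and 193 and 51 with at least 50 reads over both mutant libraries. They stayed within 1.5 times of the main counts with a pseudocount of 0.1 RPKM (695 and 384), a filter on the mutant libraries alone (642 and 374), no centring (650 and 285), TMM factors (611 and 312), a common sum without the most-read transcripts (603 and 320) and reads thinned to equal depth (660 and 413). The filters change which genes are counted and the pseudocount shrinks low ratios. Of 35 named genes past 2-fold, 0 changed sign under these 11 alternatives and 31 stayed past 2-fold in each that kept them. The others, MRPS24, MT-ND4L, VEGFA and EGR2, fell to lowest ratios of 0.85, 0.98, 0.94 and 0.86. Of 413 medians, 1 for each list and alternative, 35 moved by more than the counting error of the list's summed reads. At a median of 23 reads per gene in untreated mutant cells, small differences of single genes were not detectable.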
